A study of Homo sapiens with 47 samples.

Results

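The genes described here are 10 genes known from the selection of lung-metastatic sublines of the MDA-MB-231 breast cancer line: MMP1, MMP2, PTGS2, SPARC, IL13RA2, VCAM1, ID1, TNC, ANGPTL4 and FSCN1. They were taken as a list by gene symbol, with no threshold on measured values, and all 10 were present among the 25739 genes with expression values. The values come from single cells of MDA-MB-231-LM2 (LM2), an established human line of triple-negative breast cancer (TNBC) that is itself such a subline, sequenced with SMARTseq2, a full-length method that does not tag single molecules. LM2 cells labeled with GFP were implanted in the mammary fat pad of young adult, immunodeficient NSG mice, from where they spread on their own, and circulating tumor cells (CTCs) were picked from blood by their GFP signal after enrichment by size and negative selection for CD45. Expression was analyzed in 37 CTCs of 5 mice and in 6 LM2 cells grown in culture with no treatment. The CTCs numbered 2 in mouse 5541, 4 in mouse 5542, 10 in mouse 5545, 17 in mouse 5546 and 4 in mouse 5549.

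Metastasis to the lung requires tumor cells to cut through matrix, leave the circulation across the endothelium and grow in a foreign tissue, and the 10 genes act at these steps. MMP1 and MMP2 are secreted proteases that cleave collagen and gelatin, PTGS2 (COX-2) makes the precursor of the prostaglandins, and ANGPTL4 is a secreted inhibitor of lipoprotein lipase that also loosens endothelial junctions. SPARC and TNC (tenascin C) are secreted proteins of the extracellular matrix, VCAM1 is an adhesion molecule that binds leukocyte integrins, and IL13RA2 is a decoy receptor for interleukin 13. ID1 blocks transcription factors of the basic helix-loop-helix class, and FSCN1 (fascin) bundles actin in filopodia.

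The values are normalized counts, meaning reads of a gene over a size factor estimated for its cell, and any value above 0 was called detection. Reads on genes ranged from 469614 to 2041333 per CTC and from 776949 to 1186197 per cultured cell. The median CTC had 7569 genes detected (2313 to 12299), and cultured cells had 7369 to 13679. The limit that a count of 0 allows, taken as 3 reads, equals 0.972 to 6.36 normalized counts. The mouse was taken as the replicate of the CTCs, and the 6 cultured cells are 1 sample with no replicate. The markers of the line fixed for a check of identity, among them VIM, CD44, AXL and CAV1, were detected in 33 to 37 of the 37 CTCs and in all 6 cultured cells. Genes of erythroid cells (5 of 7 listed were measured) summed to a median of 1289 normalized counts per CTC with a highest value of 15571, genes of neutrophils (4 of 5) to a median of 27.4 and a highest value of 574, and genes of other leukocytes (7 of 8) to a median of 11.4 and a highest value of 497. In the cultured cells these sums were 0, 0 and at most 7.96. The CTCs came from mouse blood and reads were aligned to the human genome only, so these sums may include mouse transcripts, which was not tested.

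The 10 genes differed widely in how many CTCs held them. SPARC was detected in 35 of 37 CTCs (94.6%, exact 95% binomial interval 81.8 to 99.3%), and TNC, FSCN1, ANGPTL4 and ID1 in 26, 26, 25 and 24 CTCs. VCAM1 and MMP2 were detected in 13 and 12 CTCs. MMP1 was detected in 5 CTCs (13.5%, 4.54 to 28.8%), PTGS2 in 3 (8.11%, 1.7 to 21.9%) and IL13RA2 in 2 (5.41%, 0.661 to 18.2%). These intervals cover counting error only, because CTCs of a mouse share their source and copies of 1 molecule cannot be told from other molecules. Among the 6 cultured cells, SPARC and ID1 were detected in 6, ANGPTL4 and FSCN1 in 5, MMP2 in 4, MMP1, PTGS2, IL13RA2 and TNC in 3, and VCAM1 in 2. The 3 genes that were rarest in CTCs were thus each present in 3 of the 6 cultured cells, although the intervals of both groups overlap for each of them.

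**Figure D1:**
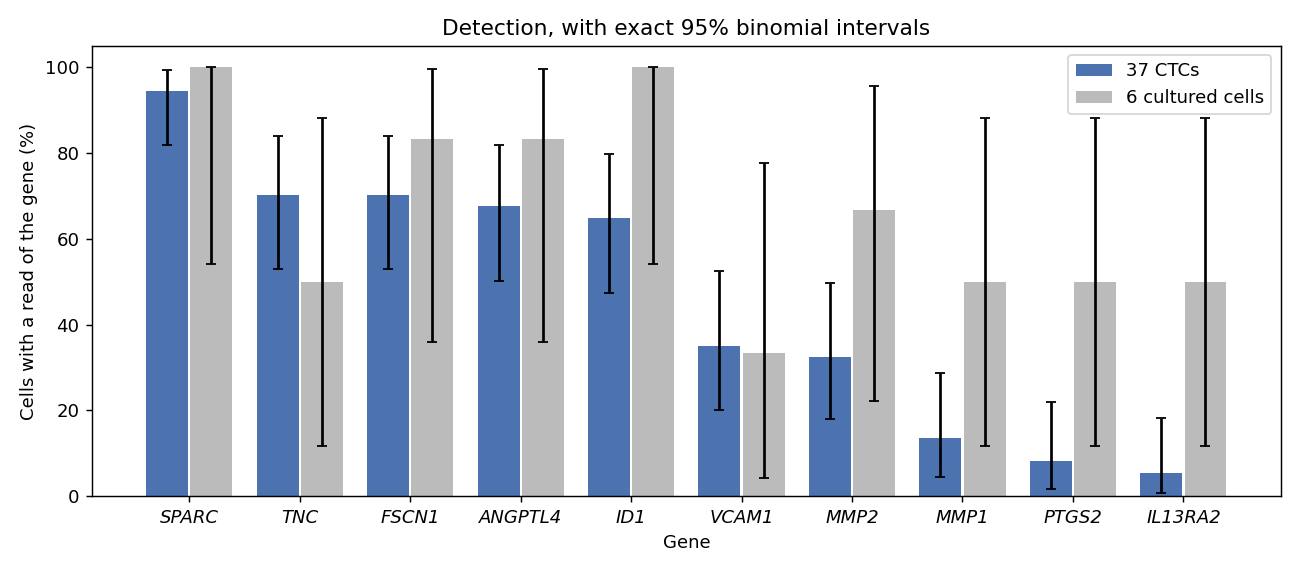
Share of cells, in percent, with at least 1 read of each gene among 37 CTCs (blue bars) and 6 cultured LM2 cells (grey bars), with exact 95% binomial intervals as error bars. Detection in CTCs runs from 94.6% for SPARC to 5.41% for IL13RA2, and the intervals of the 6 cultured cells are wide.

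Promoter sequences are shown for the genes at both ends of this order, to give the sequence context in which transcription of broadly and rarely detected genes starts. The RefSeq promoter table for GRCh38.p14 held 6 of the 10 genes (PTGS2, SPARC, VCAM1, ID1, TNC and ANGPTL4). The lines below give the 100 bases that precede the RefSeq start of transcription, 5′ to 3′ on the strand of the gene, with the letters TATAAA in capitals. The order is that of detection in CTCs, from 35 CTCs to 3.
SPARC, chr5:151686916-151687015, minus strand: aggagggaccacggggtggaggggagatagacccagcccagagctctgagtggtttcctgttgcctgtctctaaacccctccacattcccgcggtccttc
TNC, chr9:115118158-115118257, minus strand: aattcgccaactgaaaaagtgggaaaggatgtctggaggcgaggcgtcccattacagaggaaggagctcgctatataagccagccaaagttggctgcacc
ANGPTL4, chr19:8364055-8364154, plus strand: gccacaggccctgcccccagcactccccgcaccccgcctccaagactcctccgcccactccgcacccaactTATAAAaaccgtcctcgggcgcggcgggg
ID1, chr20:31605189-31605288, plus strand: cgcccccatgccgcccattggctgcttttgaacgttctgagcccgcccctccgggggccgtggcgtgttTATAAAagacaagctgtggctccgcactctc
VCAM1, chr1:100719642-100719741, plus strand: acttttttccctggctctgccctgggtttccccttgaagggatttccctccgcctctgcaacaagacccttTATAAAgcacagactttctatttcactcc
PTGS2, chr1:186680424-186680523, minus strand: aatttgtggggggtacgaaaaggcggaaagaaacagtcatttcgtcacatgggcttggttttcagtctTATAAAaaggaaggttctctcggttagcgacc

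The letters TATAAA, the core of a TATA box, began 29 bases before the start in VCAM1 and ANGPTL4, 31 before it in ID1 and 32 before it in PTGS2. They were not found in SPARC and TNC in the 250 bases searched on both strands. The search was for these exact letters only, and the TNC window holds tatataag, a near match that it did not count. Among all 35116 promoters of the table, 10.7% held TATAAA in those 250 bases on either strand, and 3.51% held it on the strand of the gene in the last 100 bases. VCAM1 and ID1 also held the letters on the opposite strand, where they overlap the copies shown by 4 bases, and VCAM1 held a further copy there, 205 bases before the start. A match of letters is a description of the window and not a measured binding site.

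Levels of different genes were compared per kilobase (kb) of merged exon length, as the mean of the 5 mouse means ± SD over mice. MMP1 had the highest mean, 216 ± 318 normalized counts per kb, followed by ANGPTL4 with 97.2 ± 156, SPARC with 40.7 ± 19.3, ID1 with 19.8 ± 12.9 and TNC with 8.8 ± 14.1. FSCN1 (2.63 ± 2.57), IL13RA2 (2.37 ± 5.3), VCAM1 (0.451 ± 0.862), MMP2 (0.331 ± 0.554) and PTGS2 (0.229 ± 0.512) were lower. Each gene differed from the next in this order by less than the larger of their SDs, except SPARC from ID1, whose difference was slightly larger than either SD. MMP1 thus stood first by its mean although 32 of the 37 CTCs held no read of it. In culture the order per kb was SPARC (83.1), MMP1 (66.5), ID1 (64.1), ANGPTL4 (26.6), IL13RA2 (17.5), FSCN1 (4.94), MMP2 (3.18), VCAM1 and PTGS2 (1.17 each) and TNC (0.921), which was last.

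**Figure D2:**
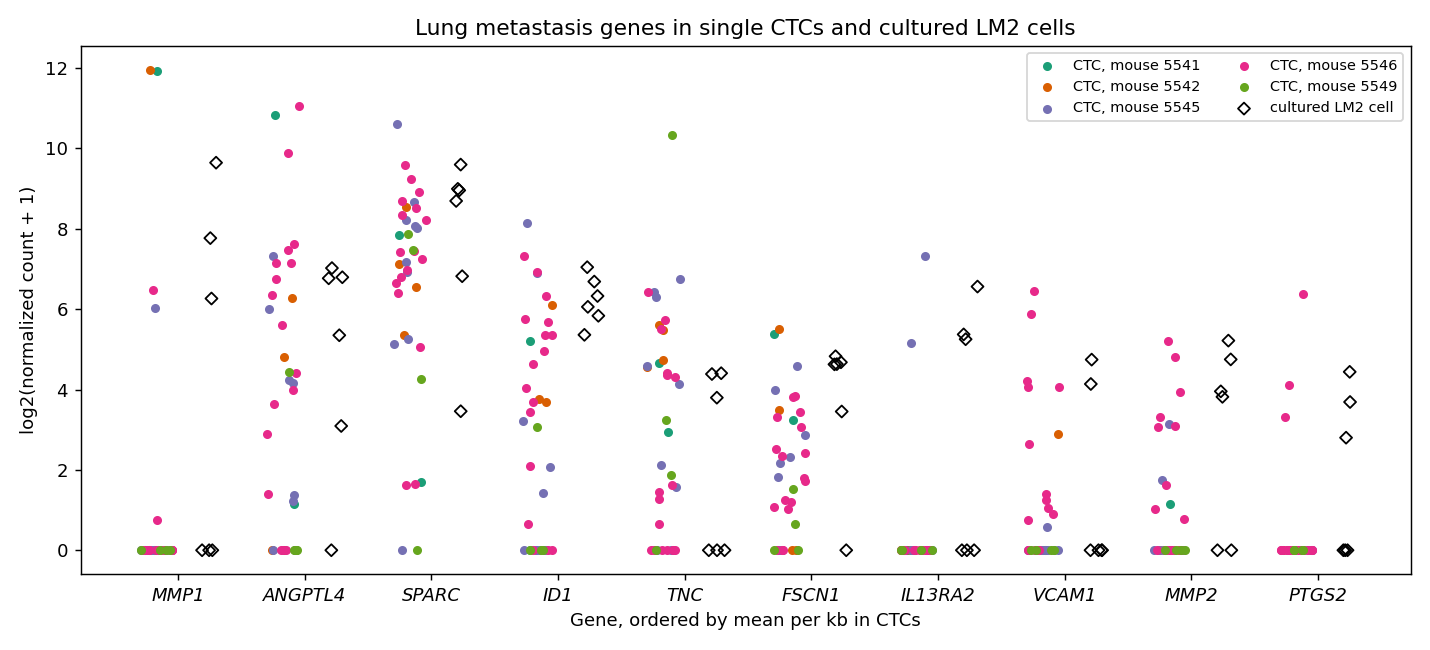
Values of the 10 genes in each cell as log2(normalized count + 1), with CTCs as dots colored by mouse and cultured LM2 cells as open diamonds; genes are ordered by their mean per kb in CTCs. Most CTCs lie at 0 for MMP1, IL13RA2, VCAM1, MMP2 and PTGS2, while 35 of 37 CTCs lie above 0 for SPARC.

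MMP1, the interstitial collagenase, was at 0 in 32 CTCs and very high in 2. CTC 5542-4 held 3966 normalized counts (5805 reads) and CTC 5541-1 held 3895 (6923 reads), which made MMP1 the gene of rank 41 and of rank 26 by value within those cells. The next values were 87.4 in 5546-c10, 64.6 in 5545-7 and 0.686, a single read, in 5546-s7. The highest 2 CTCs, from different mice, together held 98.1% of the MMP1 signal of the 37 CTCs. In culture MMP1 was 800 in LM-P3, 217 in LM-1 and 75.9 in LM-P4, and it was 0 in the other 3 cells. Both high CTCs were therefore above all cultured cells, and the CTCs at 0 overlapped with the cultured cells at 0. WTAPP1, a gene on the opposite strand that overlaps MMP1 (chromosome 11, 102789401 to 102798160, minus strand, GRCh38), reached at most 6.66 in any CTC.

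Neighbors of MMP1 in the protease cluster of chromosome 11 were sparse, and they are named here after their values were seen. MMP10 (stromelysin 2) was detected in 5542-4 alone, at 70.4, the CTC with the highest MMP1. MMP13 (collagenase 3) was detected at 114 in 5545-1, which held no MMP1, and at 0.523 in 5546-c10. MMP3 (stromelysin 1) was detected in no CTC and in cultured cell LM-P3 at 4.75, the cultured cell with the highest MMP1. MMP2 (gelatinase A), from chromosome 16 (55389700 to 55506691, plus strand), was found in 12 CTCs at low values. Its highest values were 35.9 in 5546-c8 and 26.8 in 5546-s4, and 9 of the 12 CTCs came from mouse 5546. In culture MMP2 ranged from 13.1 to 36.2 in 4 cells and was 0 in LM-2 and LM-3, so no CTC lay above all cultured cells. Mouse means of MMP2 were 0.604 in mouse 5541, 0 in mouse 5542, 1.02 in mouse 5545, 6.15 in mouse 5546 and 0 in mouse 5549, each below the culture mean of 14.9.

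Of 10 measured genes that encode other matrix proteases, their inhibitors or partners of MMP1, 0 met the rule of size given below. MMP3, MMP9, MMP10, MMP13 and MMP14 were below its minimum mean of 8 and could not be called. Over all genes above that minimum, 0.0655% were called higher and 5.31% lower in CTCs. The highest 3 of the 10 genes per kb in CTCs were TIMP1, BSG and TIMP3. TIMP1, which inhibits most MMPs, averaged 1402 ± 1320 normalized counts over mice against 421 in culture and was detected in all 37 CTCs, and its highest value, 6695, was in 5541-1, the CTC with the second highest MMP1. BSG (CD147), which induces MMPs in neighboring cells, averaged 625 ± 297 against 1596 in culture. Its mean log2 ratio was -1.51, beside a median of -1.56 over the genes above the minimum mean. TIMP3 averaged 389 ± 534 against 281 in culture, with 13462 in 5546-s4. That CTC had the highest sum of leukocyte genes (497) and also the highest sum of the markers of the line (49043). The part of either in the TIMP3 value was not tested.

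ANGPTL4 was present in most CTCs but spanned 3 orders of magnitude. Its values ran from 0 through a median of 14.9 to 2134 in 5546-s2, followed by 1816 in 5541-1 and 949 in 5546-c4. In these cells it ranked 69th, 62nd and 198th by value. The highest 3 CTCs held 78.7% of its signal. In culture ANGPTL4 was 129, 110, 108, 39.8, 7.53 and 0, and 8 CTCs lay above all cultured cells. Mouse means were 909 (mouse 5541), 26.1 (mouse 5542), 25.8 (mouse 5545), 237 (mouse 5546) and 5.19 (mouse 5549), and 2 of them were above the culture mean of 65.9. CTC 5541-1 was thus at or near the top for MMP1 and for ANGPTL4, and its 6 detected members took 0.742% of its reads, more than in any other cell.

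PTGS2 was found in CTCs of mouse 5546 alone, and there in libraries with the letter c in their names, a letter that the labels do not explain. It was 81.6 in 5546-c10, 16.2 in 5546-c1 and 8.98 in 5546-c9. In culture it was 20.7 in LM-10, 11.9 in LM-P3 and 5.97 in LM-1, and 0 in the other 3 cells. One CTC was therefore above all cultured cells, and the CTCs of the other 4 mice were at 0. PACERR, a noncoding gene on the opposite strand at the start of PTGS2 (chromosome 1, 186671791 to 186680922, minus strand), was 944 in 5549-6, where PTGS2 was 0, and counting ignored strand, so reads of the 2 genes could not be told apart where their exons overlap.

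Of the other listed genes of the prostaglandin route, PTGES and PLA2G4A were called lower in CTCs. PTGES, the synthase that makes prostaglandin E2 from the product of PTGS2, had mouse means of 0.133 to 70.1 against 460 in culture. PLA2G4A, the phospholipase that releases arachidonic acid, had mouse means of 0 to 0.61 against 20.4. Both met the rule of size as lower in all 5 mice, as did 5.31% of all genes above the minimum mean, and 91.3% of those had a mean log2 ratio below 0. PTGES3, a cochaperone also known as a cytosolic prostaglandin E synthase, averaged 390 ± 153 against 1575 in culture and did not meet the rule. The receptor PTGER4 averaged 4.28 ± 5.44 against 7.09 and the synthase PTGS1 0.0876 ± 0.196 against 7.47, and neither met it.

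SPARC was the most widely detected member. Its values in CTCs ran from 0 through a median of 151 to 1569 in 5545-15, and only 5545-11 and 5549-6 held no read. In culture SPARC was 774, 509, 496, 413, 112 and 10, and 1 CTC lay above and 5 lay below all cultured cells. Mouse means were 116 (mouse 5541), 160 (mouse 5542), 314 (mouse 5545), 247 (mouse 5546) and 106 (mouse 5549), a spread of under 3-fold, against a culture mean of 386. The highest CTC held 18.2% of its signal. For comparison, this share had a median of 16.8% over the 7019 genes with a mean of at least 8 in CTCs, and those genes were detected in a median of 28 CTCs. Fibroblasts also make SPARC. Of 9 fibroblast markers 5 were measured, with a sum of 0 to 190 per CTC (median 25.3) and of 0 to 38 per cultured cell. COL1A1, which the cultured line also held in 4 of 6 cells, was the one detected in 29 CTCs, while DCN and PDGFRB were detected in 2 CTCs each and LUM in 0. Their part in the SPARC values was not tested.

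**Figure D3:**
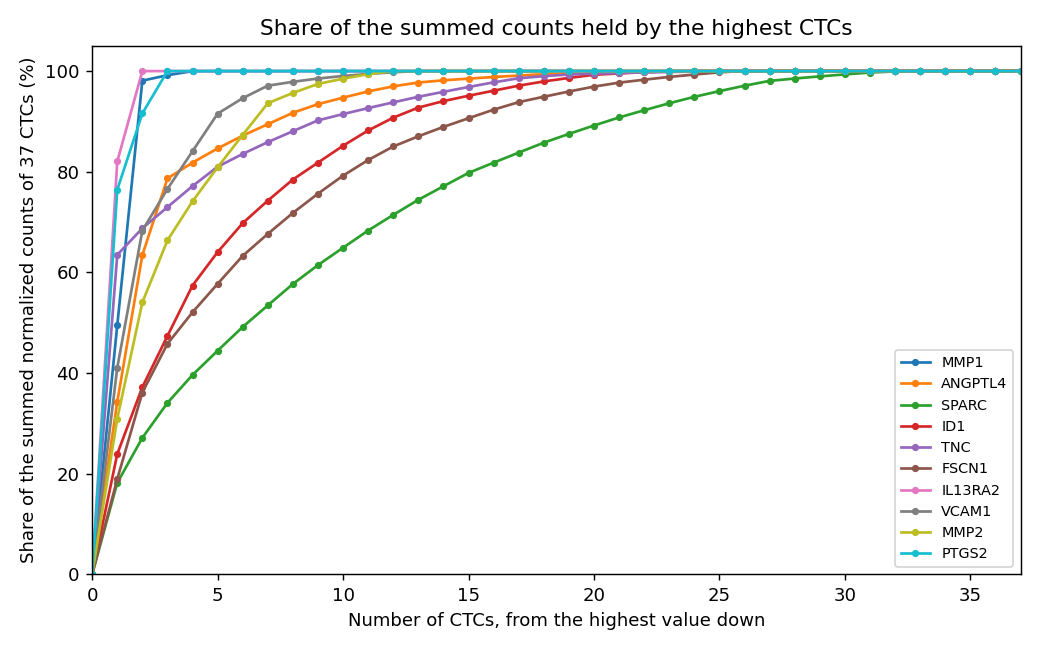
Share of the summed normalized counts of the 37 CTCs, in percent, held by the given number of CTCs counted from the highest down, with 1 line per gene. The lines of IL13RA2, MMP1 and PTGS2 reach 98% or more with at most 3 CTCs, while SPARC, ID1 and FSCN1 rise slowly.

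TNC was the only member whose mean was above the culture mean in all 5 mice, in mouse 5549 through a single CTC. Its values in CTCs ran from 0 through a median of 6.75 to 1291 in 5549-6, where it ranked 114th, and the next highest was 107 in 5545-6. In culture it was 20.2 in LM-P3, 19.9 in LM-1, 12.9 in LM-P4 and 0 in the other 3 cells, and 13 of 37 CTCs lay above all cultured cells. Mouse means were 15.5 (mouse 5541), 34.9 (mouse 5542), 31.6 (mouse 5545), 14.4 (mouse 5546) and 325 (mouse 5549) against 8.83 in culture. By medians, mice 5541 (15.5), 5542 (34.6) and 5545 (10) were above the culture (6.46), and mice 5546 (1.4) and 5549 (5.55) were below it. In mouse 5542 the 4 CTCs ranged from 22.5 to 47.8, all above the highest cultured cell, and in the other 4 mice the CTCs overlapped with the cultured cells. The other CTCs of mouse 5549 were at 8.41, 2.68 and 0, each below the culture mean of 8.83. The mean of that mouse was thus above culture through 5549-6 alone, whose value made 63.5% of the TNC signal. That CTC had 588141 reads and 5943 genes, TNC was its only detected member, and it had the highest sums of erythroid genes (15571) and neutrophil genes (574) of all CTCs and a leukocyte sum of 258; their part in the result was not tested. Without the highest CTC of each gene, the mean of TNC over mice fell to 20. DELEC1, on the opposite strand of TNC (chromosome 9, 115019575 to 115118207, minus strand), reached at most 4.18.

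Of the receptor and adhesion members, IL13RA2 was detected in 2 CTCs and VCAM1 in 13. IL13RA2 was 158 in 5545-15 and 34.6 in 5545-6, both of mouse 5545, and 0 in the other 35 CTCs. In culture it was 93.5 in LM-1, 40.4 in LM-P3 and 37.1 in LM-P4 and 0 in the other 3. One CTC lay above all cultured cells, and CTC 5545-15 was also the highest for SPARC. IL13RA1, the signaling receptor for interleukin 13, was by contrast detected in 31 CTCs, at 44.1 ± 24.6 over mice against 69.8 in culture.

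VCAM1 was detected in 11 of 17 CTCs of mouse 5546 and in 2 of the other 20. Values of at least 8 were found in 5546-c4 (86.4), 5546-c5 (57.4), 5546-c7 (17.4), 5546-c6 (15.8) and 5546-c9 (15.7). The libraries of mouse 5546 with the letter s in their names reached at most 1.37. In culture VCAM1 was 25.8 in LM-P4, 16.6 in LM-P3 and 0 in the other 4, so 2 CTCs lay above all cultured cells. Endothelial cells also make VCAM1. Of 7 endothelial markers 4 were measured, their sum had a median of 0 and a highest value of 28.6 per CTC and reached 37.1 in culture, and it was 0 in 5546-c4 and in 5546-c5. The CTC with the sum of 28.6 was 5542-8, which held VCAM1 at 6.49. The 2 cultured cells with VCAM1, LM-P4 and LM-P3, had the highest sums in culture (37.1 and 17.8). They also had the most genes detected of the cultured cells (12792 and 13679). The part of endothelial transcripts in the VCAM1 values of CTCs was not tested. ICAM1, a related adhesion molecule, had mouse means of 0 to 8.08 against 54.9 in culture and met the rule of size as lower. So did 5.31% of all genes above the minimum mean. ITGA4, which encodes the integrin chain that binds VCAM1, was detected in 2 CTCs at no more than 2.32 and in 0 cultured cells.

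ID1 was present in all 6 cultured cells and in 24 CTCs. Its values in CTCs ran from 0 through a median of 8.31 to 284 in 5545-4, followed by 158 in 5546-s1. In culture they were 131, 102, 79.3, 65.6, 56.1 and 40.1. Only 2 CTCs lay above this range and 29 lay below it. ID1 and SPARC were the members with no cultured cell at 0, so that CTCs could lie below the culture for these genes alone. Mouse means were 18 (mouse 5541), 23.2 (mouse 5542), 41.6 (mouse 5545), 37.4 (mouse 5546) and 1.86 (mouse 5549), all below the culture mean of 79. Of the relatives of ID1, ID4 had mouse means of 0 to 2.42 against 14.3 in culture and met the rule as lower. So did 5.31% of all genes above the minimum mean. ID4 in culture rested on few cells, with a highest value of 79.3 and 3 of 6 cells at 0. ID3 averaged 16.9 ± 33.1 against 33.2.

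FSCN1 was detected widely at low values. The CTCs ran from 0 through a median of 2.45 to 44.6 in 5542-1 and 40.5 in 5541-5, and 10 of 37 CTCs reached 8. In culture FSCN1 was 27.4, 24.6, 23.8, 23.7, 9.95 and 0. The groups overlapped, with 2 CTCs above all cultured cells. Mouse means were 24.4 (mouse 5541), 13.7 (mouse 5542), 5.4 (mouse 5545), 4.43 (mouse 5546) and 0.605 (mouse 5549) against 18.3 in culture.

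**Figure D4:**
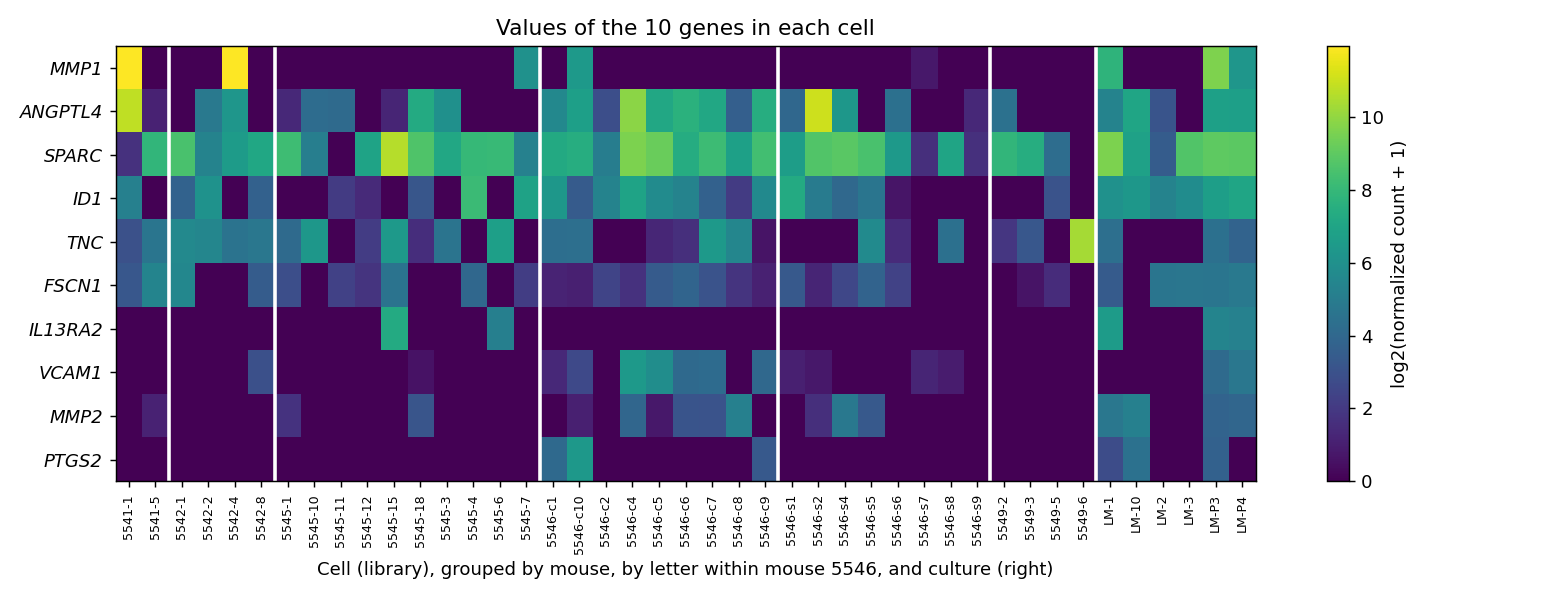
Values of the 10 genes (rows) in the 37 CTCs and 6 cultured cells (columns) as color on a log2(normalized count + 1) scale; white lines separate mice, the letters c and s within mouse 5546, and the culture at the right. The c libraries of mouse 5546 hold more of the genes than the s libraries, and 5549-6 holds TNC alone.

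CTCs held different sets of the 10 genes. The number detected per CTC had a median of 5 and ran from 1 in 5549-6 to 9 in 5546-c10, which lacked IL13RA2 alone. With a minimum value of 8, the median was 3 and the highest 6. The 10 CTCs with 3 members formed the largest class, followed by 8 CTCs with 5 members and 6 CTCs with 4. Cultured cells held a median of 7 members, with 10 in LM-P3, 9 in LM-1 and LM-P4, 5 in LM-10, 4 in LM-2 and 3 in LM-3. MMP1, IL13RA2 and TNC were detected in LM-1, LM-P3 and LM-P4 and in no other cultured cell, and these 3 cells had 11912 to 13679 genes against 7369 to 8467 in the other 3. Across CTCs the number of members followed the number of genes detected (Spearman's ρ = 0.616, n = 37 CTCs, which share mice and depth) more closely than the reads (ρ = 0.38). In mouse 5546 the 9 c libraries held a median of 7 members (4 to 9) and had 7782 to 12299 genes, and the 8 s libraries held a median of 5 (2 to 6) and had 4656 to 7538 genes, so members and genes detected moved together.

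Few members varied together across CTCs. Of the 45 pairs, the highest rank correlations over 37 CTCs were those of MMP2 with SPARC (ρ = 0.55), VCAM1 with ANGPTL4 (ρ = 0.45) and ID1 with FSCN1 (ρ = 0.43). The lowest was that of ID1 with TNC (ρ = -0.42), which were detected together in 15 of the 35 CTCs that held either. MMP1 and SPARC gave ρ = -0.33, although all 5 CTCs with MMP1 also held SPARC. The CTCs share mice, depth and gene number, so these values are descriptions. Among 6611 genes detected in at least 20 CTCs, the patterns most like SPARC were those of ETFB and C4orf3 (ρ = 0.65 each), and those most like ID1 were CTNNBIP1 (0.67) and RABGAP1 (0.62). TNC was most like PHLDA2 (0.57) and EIF4EBP1 (0.56), ANGPTL4 like BTBD3 (0.7) and MPI (0.64), and FSCN1 like PRR7 (0.71) and PTTG1IP (0.7).

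CTCs were next compared with culture, to ask how levels in the circulation relate to those of the line in the dish. By the rule of size, a gene was called when all 5 mouse means were at least 4-fold higher, or all at least 4-fold lower, than the culture mean (1 added to each mean), and the larger mean reached 8. Of the 10 members, 0 were called, with 8 above the minimum mean (PTGS2 and VCAM1 were below it). Over all 9164 genes above that minimum, 0.0655% were called higher and 5.31% lower in CTCs. The median log2 ratio of all these genes was -1.56, and 91.3% were negative, so ratios of the members are read against that median. All 5 mouse means were below the culture mean for 5 members (MMP2, PTGS2, SPARC, IL13RA2 and ID1), and PTGS2 was below the minimum. Of the 9164 genes above the minimum, 60.3% had all 5 mouse means below the culture mean. All 5 were above the culture mean for TNC and for 1.04% of those 9164 genes.

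TNC had the highest ratio of the members. Its log2 ratio to culture was 2.01 ± 1.79 (SD, n = 5 mice), and relative to the median of all genes in each mouse it was 3.5 ± 1.95, above that median in 5 of 5 mice. It was also above the median in 5 of 5 mice with reads scaled to a common total. Without 4 CTCs that were least like the others, 5549-6 among them, the log2 ratio was 0.73. With medians in place of means it was 0.43, beside a median of -2.33 for genes above the minimum. Without the highest cell of each gene per group it was 0.94, beside -1.95. As reported, no other member lay on 1 side of the median of all genes in all 5 mice. MMP2 did so with reads scaled to a common total, below that median in all 5. Relative to it, ANGPTL4 was at 1.4 ± 2.85, SPARC at 0.33 ± 0.45, FSCN1 at 0.09 ± 1.48, VCAM1 at -0.49 ± 1.5, ID1 at -0.62 ± 1.36, MMP1 at -0.74 ± 4.86, PTGS2 at -0.83 ± 1.22, MMP2 at -1.6 ± 1.07 and IL13RA2 at -2.52 ± 1.81. SPARC, which differed from culture by -1.16 ± 0.68 on the log2 scale, was thus within its SD of the median gene. Against culture it stood at -0.39 with reads scaled to a common total.

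**Figure D5:**
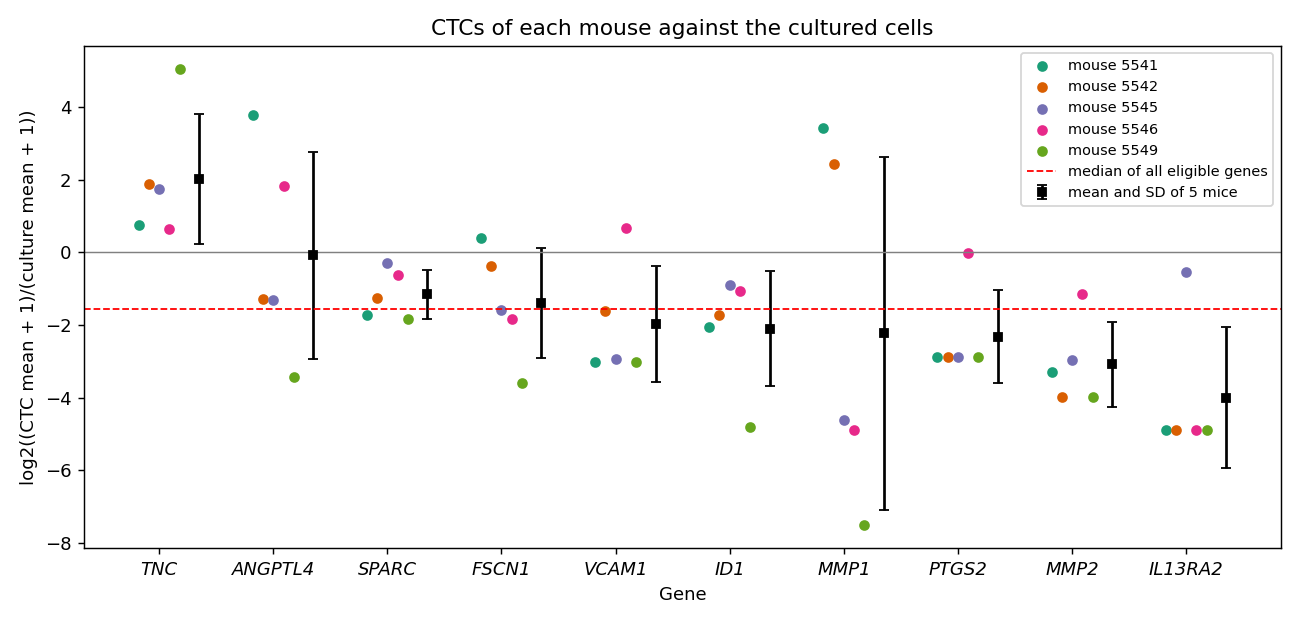
Log2 of the ratio of the CTC mean of each mouse to the culture mean, with 1 added to each, for the 10 genes (dots, 1 per mouse; squares, mean and SD of 5 mice). The grey line marks no difference and the dashed red line the median of all 9164 genes at -1.56; the dots of TNC lie above both lines in all 5 mice, and those of MMP1 spread from 3.41 to -7.52.

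The quasi-likelihood test of edgeR was also run on reads pooled by mouse against pooled cultured cells, under the assumption that a culture would vary like a mouse. It called 0 of 10 members and 0 of 13813 genes (0%) at a Benjamini-Hochberg adjusted p of 0.05. At an unadjusted p below 0.05 there were 241 genes (1.74%) and 1 member, TNC, with a log2 difference of 3.78 (SE 1.73), p = 0.05 as rounded and an adjusted p of 1. The DESeq2 Wald test called 20 genes and 0 members. The median log2 difference of all genes in this test was 0.31, so directions are relative to the scaling here too. ANGPTL4 had a log2 difference of 3.19 (SE 2.31), MMP1 of 2.7 (SE 3.24) and SPARC of 0.21 (SE 0.74), each with an adjusted p of 1. With SEs of this size, a difference of several-fold in MMP1 or ANGPTL4 was not detectable with these mice. A single comparison of 5 mouse means with 1 culture mean can reach an exact permutation p of no less than 0.167.

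Among 11 other genes of the same lung metastasis background, 1 met the rule of size, as lower, beside 5.31% of all genes above the minimum mean. MAN1A1, NEDD9, ROBO1 and PLAAT4 were below that minimum and could not be called. KRT81, a hair keratin, had mouse means of 0 to 53.4 against 860 in culture, and it was detected in 16 CTCs and in all 6 cultured cells. ADIRF, CXCL1 and EREG had the highest means per kb of this list in CTCs. ADIRF averaged 110 ± 124 against 12.4 in culture. Its mean was above culture in 3 mice and below it in 2 (4.62 in mouse 5541 and 4.64 in mouse 5549). EREG (epiregulin), a ligand of EGFR, averaged 203 ± 82.1 against 73.5. Like TNC, EREG was above the culture mean in all 5 mice, with 21 CTCs above all cultured cells. So was LTBP1 (49.8 ± 17.7 against 14.5, also 21 CTCs), which is named here after its values were seen. CXCL1, a chemokine that draws neutrophils, averaged 183 ± 280 against 227 and was detected in 10 CTCs, with 2647 in 5542-4, the CTC that also had the highest MMP1. The median log2 ratio was -0.24 over the 11 genes and -2.04 over the 10 members, and both lists hold genes below the minimum mean. It was -1.56 over the 9164 genes above that minimum and -0.24 over all 25739 genes with no minimum. The 2 lists hold different shares of such low genes, so their medians are not a like comparison.

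Of 15 measured relatives and partners of the members, 4 met the rule of size, all lower in CTCs (ID4, PTGES, PLA2G4A and ICAM1, described above). Of all genes above the minimum mean, 5.31% were called lower. ID2, PTGS1, PTGER4, ITGA4, ANGPTL2 and FSCN2 were below that minimum and could not be called. In mouse 5545 the log2 ratios were -2.71 for ID4, -3.19 for PTGES, -3.73 for PLA2G4A and -2.62 for ICAM1. Relative to the median gene of that mouse, PLA2G4A alone of these was still at least 4-fold lower. Of 9 genes known from bone- and brain-metastatic sublines, 1 met the rule of size, also as lower. CXCR4 and ST6GALNAC5 were below the minimum mean and could not be called. IL11, a cytokine known from bone metastasis, had mouse means of 0 to 0.498 against 25.9 in culture, where all 6 cells held it at 12.3 or more. CCN2, HBEGF and COL13A1 had the highest means per kb of that list, with 485 ± 432 against 1493 in culture, 92.5 ± 72.5 against 173 and 60.1 ± 41.4 against 185, and none of these 3 met the rule. Relative to the median of all genes, the rule gave 49 genes higher and 27 lower (64.5% of calls higher, against 1.2% without centering), and again 0 members.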

How the data were processed

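Single-cell RNA-seq values of 37 CTCs and 6 cultured LM2 cells were used; 4 further labelled CTCs were not analysed here. The deposited values are a signal: the authors aligned reads to human GRCh38 with GENCODE release 38 by STAR 2.7.10a, kept unique alignments, ignored strand and divided counts by DESeq2 1.42.1 size factors. Dividing by the lowest nonzero value of a cell returned whole reads (100% of values, tolerance 0.001), which were summed per mouse for edgeR 4.0.16 (trimmed-mean scaling, filterByExpr) and DESeq2 1.42.0. Names, coordinates and exon lengths came from GENCODE release 44, which matched 25565 of 25739 identifiers. The CTCs came from mouse blood, and reads were aligned to the human genome only. Mice were read from library names. The labels used here give no processing batch, and they do not explain the letters c and s of mouse 5546 or the letter P of LM-P3 and LM-P4. Named genes are the 10 members, listed genes that met a call, the highest 3 per kb of each list and the 2 genes most correlated with each member detected in at least 20 CTCs. Listed genes below the minimum mean are named as well. Members and lists were chosen with earlier results of these data known. Scripts (Python 3.11.15, R 4.3.3) were tested on simulated data. Alternatives were other pseudocounts, folds, averages, scalings and filters, thinning to 469614 reads, and leaving out each mouse or cultured cell.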

Additional observations from a re-analysis of the deposited data

Results flagged for a closer look

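Within mice, within the culture and among the 5 mouse means, 41 groups of 4 to 10 values were examined on a log2(value + 1) scale for a highest or lowest value that stands apart by Dixon's criterion. Of these, 11 stood apart. The 17 CTCs of mouse 5546 and the 2 CTCs of mouse 5541 fell outside these group sizes and were not examined as groups. Chance gives about 1 in 20 for continuous values, a rate that does not apply where 1 nonzero value stands among zeros, as in 8 of the 11. MMP1 did so in 5542-4 (3966, the other 3 CTCs of mouse 5542 at 0) and in 5545-7 (64.6, the other CTCs of mouse 5545 at 0). Among mouse means, PTGS2 stood apart in mouse 5546 (6.28, other mice at 0), IL13RA2 in mouse 5545 (19.3, other mice at 0) and TNC in mouse 5549 (325, next 34.9 in mouse 5542).

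Single CTCs also stood apart for VCAM1 in 5542-8 (6.49, others of the mouse at 0) and 5545-18 (0.489, a single read), for ID1 in 5549-5 (7.43, others at 0) and for ANGPTL4 in 5549-2 (20.8, others at 0). Values at the low end were SPARC in 5545-11 (0, next 33.9) and FSCN1 in cultured cell LM-10 (0, next 9.95).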

How the results depend on the processing

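With a minimum value of 8, members detected per CTC fell to a median of 3. By the rule of size, genes called higher and lower in CTCs numbered 6 and 487. Genes higher were 12 with a pseudocount of 0.5, 24 at 2-fold, 2 with medians in place of means, 12 with reads scaled to a common total and 49 relative to the median gene, an alternative chosen after seeing the data. Genes lower were 256 with a pseudocount of 4, 2298 at 2-fold, 1357 with medians, 126 with scaled reads, 753 without the highest cell of each gene per group (mouse 5541, with 2 CTCs, was left whole) and 27 relative to the median gene. Leaving out each mouse or cultured cell gave 5 to 13 genes higher and 397 to 757 lower. Genes higher were 13 without mouse 5541, 12 without mouse 5546 and 10 without mouse 5549, and genes lower were 757 without mouse 5545. Members called, 0 as reported, were 1 at 2-fold (MMP2), 2 with medians (MMP2 and IL13RA2) and 0 to 1 when 1 mouse or cell was left out (MMP2 without mouse 5546, IL13RA2 without mouse 5545).

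In edgeR 0 genes were called as reported, 27 without a filter, 20 by DESeq2, and 0 to 1 when 1 mouse or cell was left out (1 without mouse 5545), with 0 members in each. Near-zero edgeR log2 differences turned sign. VCAM1, -0.14 as reported, ran from -2.81 without mouse 5546 to 0.69 without LM-P4 when 1 mouse or cell was left out, and was 0.42 without the s libraries, an alternative added after seeing the data. FSCN1, 0.18 as reported, ran from -0.52 without mouse 5541 to 0.46 without mouse 5549. PTGS2, -0.66 as reported, ran from -7.35 without mouse 5546, which held all of it in CTCs, to 0.11 without LM-10. The cause was not tested. No paired analysis was possible because library numbers only name cells within a mouse and the culture is 1 sample.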
